A study of Mus musculus with 16 samples.

Results

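The transcripts of 10 genes of calcium/calmodulin-dependent protein kinase (CaM kinase) signalling were followed in the cortex and striatum of mice in which Trrap was targeted in forebrain neurons. The genes were taken by their symbols, with earlier results of these data known, and make up 10 of the 53801 gene identifiers in the count table. They are the CaMKII subunit genes Camk2a, Camk2b, Camk2d and Camk2g, the CaMKII inhibitor genes Camk2n1 and Camk2n2, the kinase genes Camk4 and Camk1d, the pseudokinase gene Camkv and the kinase kinase gene Camkk2. All 10 passed the filter on low counts in each comparison, and their positions are given in GRCm38.

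RNA was sequenced from cortex and striatum tissue of 9 mice aged 10 days, in 16 libraries, with 4 per tissue and genotype. Control mice had the genotype Trrap Fl/+ and Trrap-FBΔ mice the genotype Trrap Fl/Fl, where Fl stands for a floxed allele, and mice of both groups carried Camk2-Cre tg on a C57BL6/J-129sv background. Thus the controls also held 1 floxed allele together with Cre, and no library came from a mouse without Cre. The study's methods name the driver as Tg(Camk2a-cre/ERT2)2Gsc, in which a Camk2a promoter directs a tamoxifen-dependent Cre to pyramidal neurons, and for these mice they name no tamoxifen treatment. The libraries hold glia, vessels and other neurons besides the cells in which Cre acts. Mice 55, 58, 63 and 64 gave the control cortices, mice 58, 63, 64 and 65 the control striata, and mice 57, 59, 60 and 61 both Trrap-FBΔ tissues, and the 4 values of a group are given below in this order. Control cortices came from 2 females and 2 males, control striata from 1 female and 3 males, and either Trrap-FBΔ tissue from 3 females and 1 male.

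CaMKII is a large holoenzyme built from the products of the 4 subunit genes, and it is one of the most abundant proteins of excitatory synapses, where it responds to calcium entering through NMDA receptors and is required for long-term potentiation. CaMKIV and the CaMKI kinases act as single chains and are switched on when CaM kinase kinases phosphorylate them. CaMKIV works largely in the nucleus, where it phosphorylates the transcription factor CREB, while CaM kinase kinase 2 also activates the AMP-activated protein kinase.

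Between 28743866 and 48761429 reads were counted on genes per library (median 41482110), and levels below are in CPM, the reads of a gene scaled to the size of its library, on one scale for all 16 libraries. Whole-gene counts of Trrap did not separate the groups. They were 173, 156, 136 and 147 CPM in control and 121, 137, 135 and 146 CPM in Trrap-FBΔ cortices, and 151, 140.0, 150.1 and 142 CPM against 148, 135, 145 and 138 CPM in striata, with log2 fold changes of -0.18 ± 0.075 (SE, adjusted p = 0.0826) and -0.044 ± 0.048 (adjusted p = 0.519). The cortical value passed with no filter on low counts (adjusted p = 0.0460), with all 16 libraries in one fit (0.0465) and without the control of mouse 63 (0.0336). A count over the whole gene also takes in exons outside the floxed part, and the libraries also hold cells in which Cre does not act. In these libraries the genotypes and all directions below thus rest on the labels. The study's own checks of the deletion by western blot and quantitative PCR are not repeated here. The tissue labels were compared with marker genes. Summed levels of 8 cortical excitatory neuron markers lay between 1561 and 1966 CPM in the 8 cortices and between 262 and 593 CPM in the 8 striata. The summed level of 8 markers of striatal projection neurons overlapped between the tissues, with sums of 254 to 695 CPM in control cortices, 310.4 to 418 CPM in Trrap-FBΔ cortices, 217 to 1117 CPM in control striata and 331 to 542 CPM in Trrap-FBΔ striata, and none of them was at 0. The control striata of mice 58 and 64 held the lowest and the highest of these sums, and the control cortices of mice 58 and 63 the highest among cortices. Of the single markers, Tac1 was at 39.0 to 62.96 CPM in the 8 striata and at 17.1 to 33.1 CPM in the 8 cortices, without overlap. In control mice 1 of the 8 passed as higher in the striatum and none as lower, and in Trrap-FBΔ mice 4 passed as higher and 1 as lower. Tissues are called here after their labels.

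**Figure D1:**
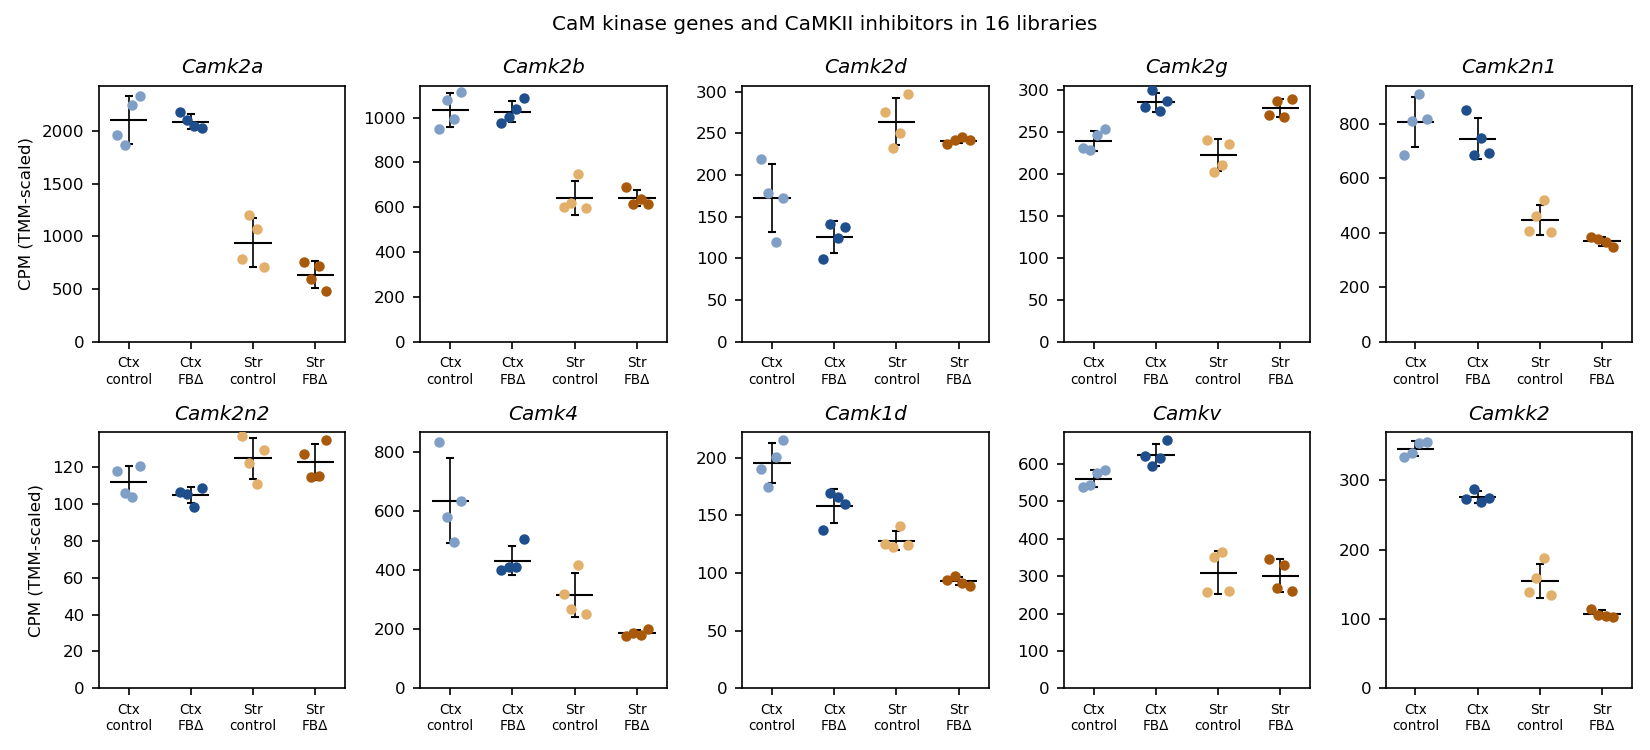
Level of each of the 10 genes in CPM (vertical axes, starting at 0) in the 4 libraries of each tissue (Ctx, cortex and Str, striatum) and genotype. Points are libraries, horizontal bars are means and error bars are SDs. Camkk2, Camk1d and Camk4 sat lower and Camk2g higher in Trrap-FBΔ than in control libraries, with overlap for Camk4 in the cortex only.

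Promoters are shown for 2 genes that fell in both tissues, Camkk2 and Camk1d, and for 1 that passed the test in neither, Camk2n2. Each run is the 250 bases before a start in RefSeq (build GRCm38.p6), 5′ to 3′ on the strand of the gene, and capitals mark the GC box GGGCGG, the motif of the Sp1 family of transcription factors, read on both strands, with overlapping matches counted separately.
Camkk2 (chr5:122779411-122779660, minus strand, 72.4% G and C): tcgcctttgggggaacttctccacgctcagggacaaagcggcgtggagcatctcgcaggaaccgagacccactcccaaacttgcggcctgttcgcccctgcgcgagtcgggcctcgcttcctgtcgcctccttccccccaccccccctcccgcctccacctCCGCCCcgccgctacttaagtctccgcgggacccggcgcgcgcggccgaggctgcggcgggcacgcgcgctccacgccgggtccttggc
Camk1d, upstream start (chr2:5714763-5715012, minus strand, 69.2% G and C): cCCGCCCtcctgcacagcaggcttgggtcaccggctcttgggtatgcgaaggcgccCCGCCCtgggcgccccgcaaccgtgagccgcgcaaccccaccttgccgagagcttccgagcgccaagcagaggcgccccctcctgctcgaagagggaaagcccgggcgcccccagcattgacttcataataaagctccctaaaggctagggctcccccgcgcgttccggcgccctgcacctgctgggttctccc
Camk1d, start within the gene (chr2:5676047-5676296, minus strand, 48.4% G and C): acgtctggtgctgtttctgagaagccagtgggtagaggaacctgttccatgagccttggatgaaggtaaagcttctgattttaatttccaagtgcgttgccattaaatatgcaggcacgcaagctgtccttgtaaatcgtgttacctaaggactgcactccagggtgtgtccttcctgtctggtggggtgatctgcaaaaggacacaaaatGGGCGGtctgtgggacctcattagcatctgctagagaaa
Camk2n2 (chr16:20621279-20621528, minus strand, 80.0% G and C): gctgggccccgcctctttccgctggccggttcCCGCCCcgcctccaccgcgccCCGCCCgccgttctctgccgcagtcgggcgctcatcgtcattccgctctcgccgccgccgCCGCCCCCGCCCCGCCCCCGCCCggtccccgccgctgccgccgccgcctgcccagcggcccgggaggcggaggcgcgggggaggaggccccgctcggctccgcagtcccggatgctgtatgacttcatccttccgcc
Camkk2 held 1 GC box, the upstream start of Camk1d 2, its start within the gene 1, and Camk2n2 6. Among the other members whose windows were read, Camk2b, Camk2d and Camkv held 3 each. Camk2b and Camkv also passed in neither tissue, and Camk2d was lower in the cortex, so Camk2n2 is the highest count read and not a typical one. Camk4 and Camk2a, which fell in both tissues and in the striatum, were left out of this reading. Whether GC boxes differ between genes that fell and genes that did not was not tested. Of 32851 RefSeq windows of this length, 32.74% held at least 1 GC box and 8.469% at least 3. A match of letters does not show that a factor binds there.

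Expressed per kb of merged exons (RPKM), Camk2a was the highest of the 10 genes in the control cortex, with 282 ± 29.9 RPKM (mean ± SD, n = 4 in all groups), followed by Camk4 with 195 ± 44.0 RPKM, Camk2n1 with 182 ± 20.7 RPKM, Camkv with 149 ± 5.99 RPKM and Camk2b with 113 ± 8.35 RPKM. Ranges of neighbours in this order overlapped down to Camkv, and from Camkv on each gene lay above the next. Camk2n2 followed with 86.8 ± 6.48 RPKM, Camk2g with 37.4 ± 1.86 RPKM, Camkk2 with 31.6 ± 0.990 RPKM and Camk1d with 26.3 ± 2.30 RPKM, and Camk2d came last with 7.68 ± 1.81 RPKM. In control striata the order was flatter, since Camk2a with 126 ± 31.2 RPKM, Camk2n1 with 101 ± 12.4 RPKM, Camk4 with 96.8 ± 23.1 RPKM, Camk2n2 with 96.6 ± 8.62 RPKM, Camkv with 82.2 ± 15.2 RPKM and Camk2b with 70.3 ± 8.07 RPKM each overlapped the next.

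In Trrap-FBΔ cortices Camk4, at 133 ± 15.0 RPKM, stood below Camkv, at 166 ± 7.64 RPKM, with no overlap. In Trrap-FBΔ striata Camk4, at 57.1 ± 3.09 RPKM, stood below Camk2b, at 70.2 ± 3.89 RPKM, again with no overlap, and Camk2n2, Camk2a, Camk2n1, Camkv and Camk2b, at 95.2 ± 7.61, 85.3 ± 16.8, 83.0 ± 3.66, 80.0 ± 11.7 and 70.2 ± 3.89 RPKM, overlapped from one to the next. Camkk2 was the lowest of the 10 in this group, at 9.78 ± 0.518 RPKM. With the length of the longest transcript in place of merged exons, 13 of the 40 places in the 4 orders stayed as they were. Camk2b then rose to the second place in control cortices and to the first in Trrap-FBΔ striata, Camk1d took the place of Camkk2 as the lowest in Trrap-FBΔ striata (13.4 against 22.0 RPKM), and Camk2d was no longer last in control cortices.

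The first comparison asked how these genes differed with the Trrap genotype in the cortex. Of the 10 genes, 5 passed the test there, with Camkk2, Camk1d, Camk4 and Camk2d lower and Camk2g higher in Trrap-FBΔ mice. Over all 18268 genes tested, 33.3% passed, 15.7% as higher and 17.6% as lower, and the median log2 fold change was -0.11 over the 10 genes and 0.0010 over all genes. In the striatum 6 of the 10 passed, with Camkk2, Camk1d, Camk4, Camk2a and Camk2n1 lower and Camk2g higher, against 30.2% of 18872 genes tested (14.4% higher and 15.8% lower), and the medians were -0.21 and -0.0055. Camk4, Camk1d and Camkk2 were lower and Camk2g higher in both tissues, a pattern of the same direction that 19.0% of 17938 genes showed (8.47% higher and 10.5% lower). Libraries of whole tissue cannot tell fewer cells of a type from less RNA per cell.

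**Figure D2:**
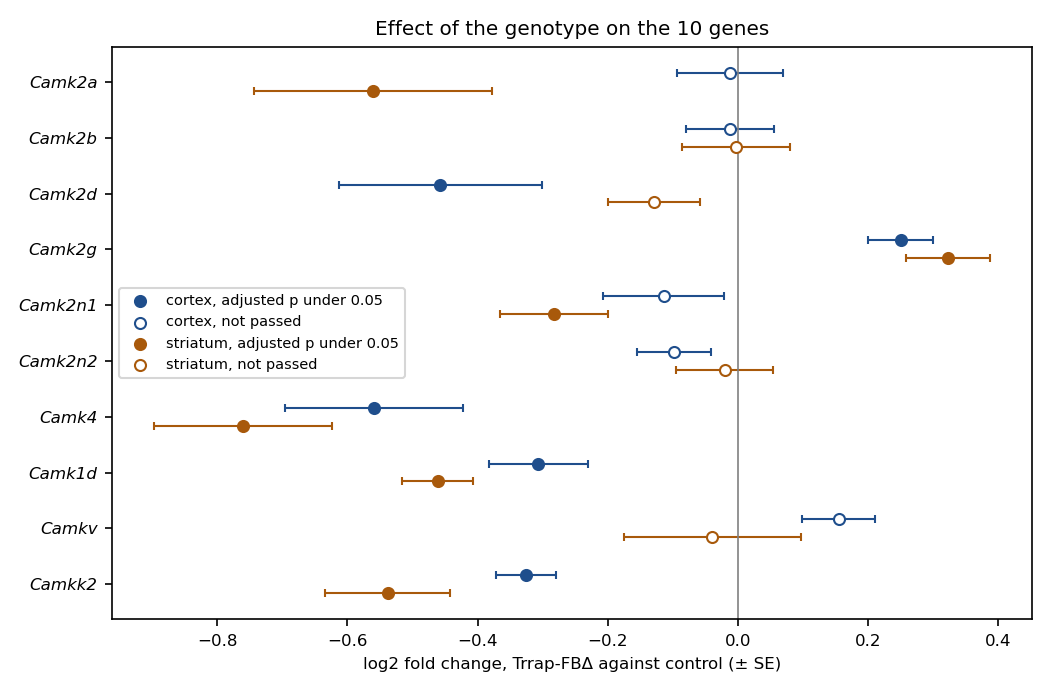
Log2 fold change of Trrap-FBΔ against control libraries (horizontal axis, error bars SE) for the 10 genes in cortex (blue) and striatum (brown), with filled points for an adjusted p under 0.05 in edgeR. Camk4, Camk1d and Camkk2 lie left of 0 and Camk2g right of 0 in both tissues, whereas Camk2b lies at 0 in both.

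Camk2a (ENSMUSG00000024617, chr18:60925618-60988152, plus strand), which encodes the alpha subunit typical of forebrain excitatory neurons, did not pass in the cortex. Control cortices held 1964, 1865, 2248 and 2332 CPM and Trrap-FBΔ cortices 2176, 2101, 2046 and 2022 CPM, so that all 4 Trrap-FBΔ libraries fell inside the control range (log2 fold change -0.012 ± 0.082 (SE), adjusted p = 0.927). In the striatum the controls held 785, 1200.5, 1065 and 706 CPM and the Trrap-FBΔ mice 757, 593, 716 and 481 CPM. The controls of mice 63 and 64 stood high, that of mouse 58 lay just above the Trrap-FBΔ values and that of mouse 65 among them, so that the groups overlapped. The striatal level fell by 32.2% (log2 fold change -0.56 ± 0.18 (SE), adjusted p = 0.0414). This call was lost with sex as a covariate (adjusted p = 0.0576), without the libraries of mouse 59, 60, 61, 63 or 64 (adjusted p between 0.0543 and 0.101), and with the control striata of mice 58 and 64 both left out (0.103).

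Cortical excitatory neuron markers were also lower in Trrap-FBΔ striata. Their sums were 593, 581, 548 and 356 CPM in control and 367, 269.6, 373 and 262 CPM in Trrap-FBΔ striata, 5 of the 8 markers were lower there and none was higher, and none was at 0 in a group. In the cortex, where Camk2a did not pass, the sums were 1561 to 1966 CPM in control and 1724 to 1851 CPM in Trrap-FBΔ libraries, and 1 of the 8 was lower. Oligodendrocyte marker sums were 9336, 3146, 4381 and 6927 CPM in control and 4726, 6296, 3925 and 6883 CPM in Trrap-FBΔ striata. The 8 striatal projection neuron markers, with the sums given above, had a median log2 fold change of -0.54 in the striatum. It was -0.28 in the cortex, and none of the 8 passed in either tissue. The part of these cell types in the striatal result was not tested.

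Camk2b (ENSMUSG00000057897, chr11:5969644-6066362, minus strand), the gene of the beta subunit, which binds actin, did not pass in either tissue. It stood at 949, 1079.8, 992 and 1114 CPM in control and 976, 1005, 1037 and 1087 CPM in Trrap-FBΔ cortices (log2 fold change -0.012 ± 0.068 (SE), adjusted p = 0.912). For the striatum the values were 599, 621, 751 and 595 CPM and 691, 616, 636 and 617 CPM (log2 fold change -0.0030 ± 0.083 (SE), adjusted p = 0.982). Groups overlapped in both tissues, and the control striatum of mouse 64 was the highest of the 8.

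Camk2d (ENSMUSG00000053819, chr3:126596302-126846326, plus strand), which encodes the delta subunit found in many tissues, fell in the cortex and did not pass in the striatum. Levels were 219.5, 179, 120.1 and 172 CPM in control and 99.1, 141, 125 and 138 CPM in Trrap-FBΔ cortices. The control of mouse 63 lay within the Trrap-FBΔ range while the other 3 controls lay above it (log2 fold change -0.46 ± 0.16 (SE), adjusted p = 0.0412). Without any one of the other 7 cortices the adjusted p was between 0.0526 and 0.107, without mouse 63 it was 0.00388, and with DESeq2, limma-voom, upper-quartile normalization or sex as a covariate it was between 0.0527 and 0.0676. In striata the values were 275, 232, 251 and 297 CPM for controls and 237, 242, 245 and 241 CPM for Trrap-FBΔ mice (log2 fold change -0.13 ± 0.071 (SE), adjusted p = 0.194), and it passed there without mouse 63 (adjusted p = 0.0308).

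Camk2g (ENSMUSG00000021820, chr14:20734875-20794088, minus strand), the gene of the gamma subunit, known for carrying calmodulin to the nucleus, was the one subunit gene that rose. Control cortices held 231, 228, 246 and 253 CPM and Trrap-FBΔ cortices 279.8, 299.8, 275 and 286 CPM. Every Trrap-FBΔ cortex lay above every control, and the level was 1.19 times that of controls (log2 fold change 0.25 ± 0.050 (SE), adjusted p = 0.00306). In the striatum the controls held 241, 202, 211 and 236 CPM and the Trrap-FBΔ mice 269.8, 286, 268 and 289 CPM. The groups again did not overlap, and the level was 1.25 times that of controls (log2 fold change 0.32 ± 0.064 (SE), adjusted p = 0.00455).

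Together with Camkv in the cortex, Camk2g was among the genes whose Trrap-FBΔ libraries all lay above the controls. Of the 10 genes, 4 had no overlap in the cortex (Camk2g and Camkv higher, Camk1d and Camkk2 lower) and 5 in the striatum (Camk2g higher, Camk2n1, Camk4, Camk1d and Camkk2 lower). Over all genes tested 32.7% had no overlap in the cortex, 16.0% higher and 16.7% lower, and 31.6% had none in the striatum, 15.6% higher and 16.0% lower.

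The makeup of the subunit transcripts, as shares of their summed reads per kb in each library, was held by Camk2a in the cortex. Its share was 63.9% ± 2.42 (SD, n = 4) in control and 63.2% ± 1.58 in Trrap-FBΔ cortices, followed by Camk2b with 25.8% ± 2.05 and 25.4% ± 1.36. The cortical share of Camk2g was 8.52% ± 0.236 in control and 10.1% ± 0.345 in Trrap-FBΔ mice, without overlap. That of Camk2d was 1.77% ± 0.504 and 1.27% ± 0.196. In striata the share of Camk2a was 51.3% ± 6.35 in control and 40.4% ± 4.65 in Trrap-FBΔ mice. Shares of Camk2b were 29.1% ± 2.73 and 33.6% ± 1.72 there, those of Camk2g 14.6% ± 3.11 and 20.9% ± 2.63, and those of Camk2d 4.95% ± 1.17 and 5.15% ± 0.479. The shares of a library add up to 100%, so that a lower one raises the others.

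**Figure D3:**
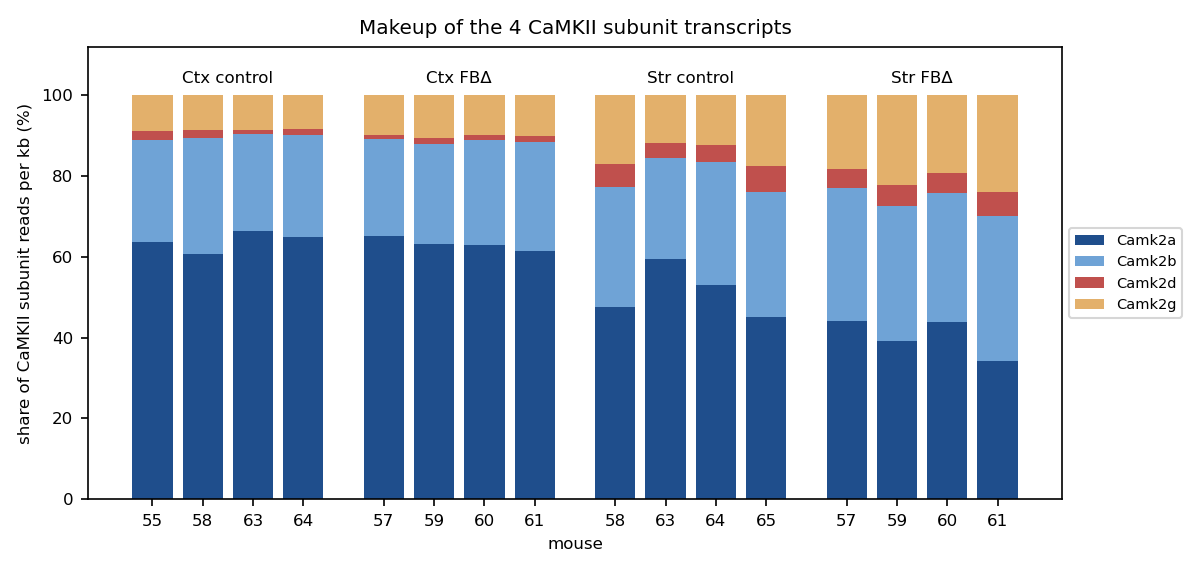
Share of each CaMKII subunit gene in the reads per kb of the 4 genes (vertical axis, percent), with 1 bar per library ordered by mouse within tissue and genotype. Camk2a takes about the same share in the 8 cortices, and its share is lower in each Trrap-FBΔ striatum than in any control striatum.

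The ratio of Camk2a to Camk2b counts, the main subunits of the neuronal holoenzyme, was 1.31, 1.93, 1.42 and 1.19 in control and 1.10, 0.963, 1.12 and 0.779 in Trrap-FBΔ striata. All 4 Trrap-FBΔ ratios lay below all 4 controls, with a difference of -0.55 on the log2 scale (2-sided p = 0.0286 in an exact permutation test, the lowest value open to 4 against 4, and 0.171 after adjustment over 6 such tests). In the cortex the ratios were 2.07, 1.73, 2.27 and 2.09 and 2.23, 2.09, 1.97 and 1.86, which differed by 0.0038 on the log2 scale (exact permutation test, p = 1.0). The other 4 tests, on the ratios of Camk2n1 to Camk2a and of Camk2n1 to Camk2n2, gave exact permutation p-values between 0.200 and 0.914 and adjusted values of 0.471 or more.

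Camk2n1 (ENSMUSG00000046447, chr4:138454314-138460123, plus strand) encodes a small protein that binds the activated CaMKII subunit and blocks it. Control cortices held 688, 812, 911 and 817 CPM and Trrap-FBΔ cortices 853, 688, 749.7 and 694 CPM, and the groups overlapped (log2 fold change -0.11 ± 0.093 (SE), adjusted p = 0.375). In the striatum the level fell, from 408, 461, 521 and 404 CPM in controls to 384, 378, 365 and 347 CPM in Trrap-FBΔ mice. Every Trrap-FBΔ striatum lay below every control, with mouse 64 the highest control (log2 fold change -0.28 ± 0.083 (SE), adjusted p = 0.0277). The call was lost with sex as a covariate (adjusted p = 0.0549), without mouse 59, 60, 61 or 64 (between 0.0541 and 0.0744), and with the control striata of mice 58 and 64 both left out (0.0763).

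Camk2n2 (ENSMUSG00000051146, chr16:20619215-20621287, minus strand), the gene of the second inhibitor of this kind, stood at 118, 106, 104 and 121 CPM in control and 107, 105, 98.3 and 109 CPM in Trrap-FBΔ cortices (log2 fold change -0.10 ± 0.056 (SE), adjusted p = 0.205). Its striatal levels were 137, 122, 111 and 129 CPM and 127, 115, 115 and 135 CPM (log2 fold change -0.020 ± 0.075 (SE), adjusted p = 0.862). The groups overlapped in both tissues. With the control cortices of mice 58 and 63 both left out it passed as lower in the cortex (adjusted p = 0.0383).

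Camk4 (ENSMUSG00000038128, chr18:32934931-33191228, plus strand), the gene of the nuclear kinase CaMKIV, had the largest fall of the 10 genes in either tissue. It was at 834, 581, 497 and 634 CPM in control and 402, 410.4, 411 and 505 CPM in Trrap-FBΔ cortices. Mouse 55 was the highest control, and mouse 61 of the Trrap-FBΔ group lay just above the lowest control, mouse 63. The cortical level fell by 32.1% (log2 fold change -0.56 ± 0.14 (SE), adjusted p = 0.00884). In the striatum it fell by 41.0%, from 321, 270.4, 419 and 251 CPM to 177, 188, 179.9 and 199.7 CPM (log2 fold change -0.76 ± 0.14 (SE), adjusted p = 0.00276). All 4 Trrap-FBΔ striata lay within a narrow range below the lowest control. An antisense gene, 2310026I22Rik, overlaps Camk4, and the authors' counting used strand.

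Camk1d (ENSMUSG00000039145, chr2:5293457-5714515, minus strand), which encodes a cytoplasmic CaMKI kinase known for roles in dendrite growth, fell in both tissues. The cortical levels were 190.3, 175, 201 and 216 CPM in control and 137, 169.8, 166 and 160.1 CPM in Trrap-FBΔ mice, without overlap (log2 fold change -0.31 ± 0.076 (SE), adjusted p = 0.00985). Striata held 125, 123, 141 and 125 CPM and 94.2, 97.7, 91.8 and 88.7 CPM (log2 fold change -0.46 ± 0.055 (SE), adjusted p = 0.000385). The lowest control striatum was well above the highest Trrap-FBΔ striatum, a fall of 27.4%.

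Some cell type markers were lower where Camk4, Camk1d and Camkk2 were. Cortical excitatory neuron markers were lower for 5 of 8 genes in the striatum and 1 of 8 in the cortex. Their median log2 fold changes were -0.71 and -0.10, with the sums given beside Camk2a. The summed level of 6 immature neuron genes was 1438 to 2273 CPM in control and 889.7 to 1253 CPM in Trrap-FBΔ cortices, and 1427 to 1672 against 1060.4 to 1169 CPM in striata, and 3 of the 6 were lower and 1 was higher in the cortex and 2 were lower in the striatum. Dpysl3 made up most of these differences, with 756 to 1343 against 269.7 to 416 CPM in the cortex and 479 to 576 against 212 to 258 CPM in the striatum. Beside it Dcx was lower in both tissues, and the striatal median over the 6 was -0.080 on the log2 scale. Microglia markers summed to 256 to 289 against 182 to 231 CPM in the cortex, where 6 of 6 were lower, and to 205 to 249.5 against 163 to 179 CPM in the striatum, where 5 of 6 were lower. Oligodendrocyte markers were lower in the cortex for 6 of 6 genes (1763 to 3121 against 1294 to 2000.2 CPM) and passed for none in the striatum (3146 to 9336 against 3925 to 6883 CPM). Endothelial markers were lower for 5 of 6 genes in the cortex (166 to 206 against 153 to 165 CPM) and 1 of 6 in the striatum (148 to 212 against 147 to 182 CPM). Of 6 astrocyte markers, Gfap and Gja1 were higher in both tissues, as Camk2g was, and 2 were lower in the cortex. Of 5 choroid plexus markers, 1 was higher in the striatum (122 to 563 against 294 to 749.6 CPM) and none passed in the cortex. No gene of these lists was at 0 in a group, and the part of these cells in the results was not tested.

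**Figure D4:**
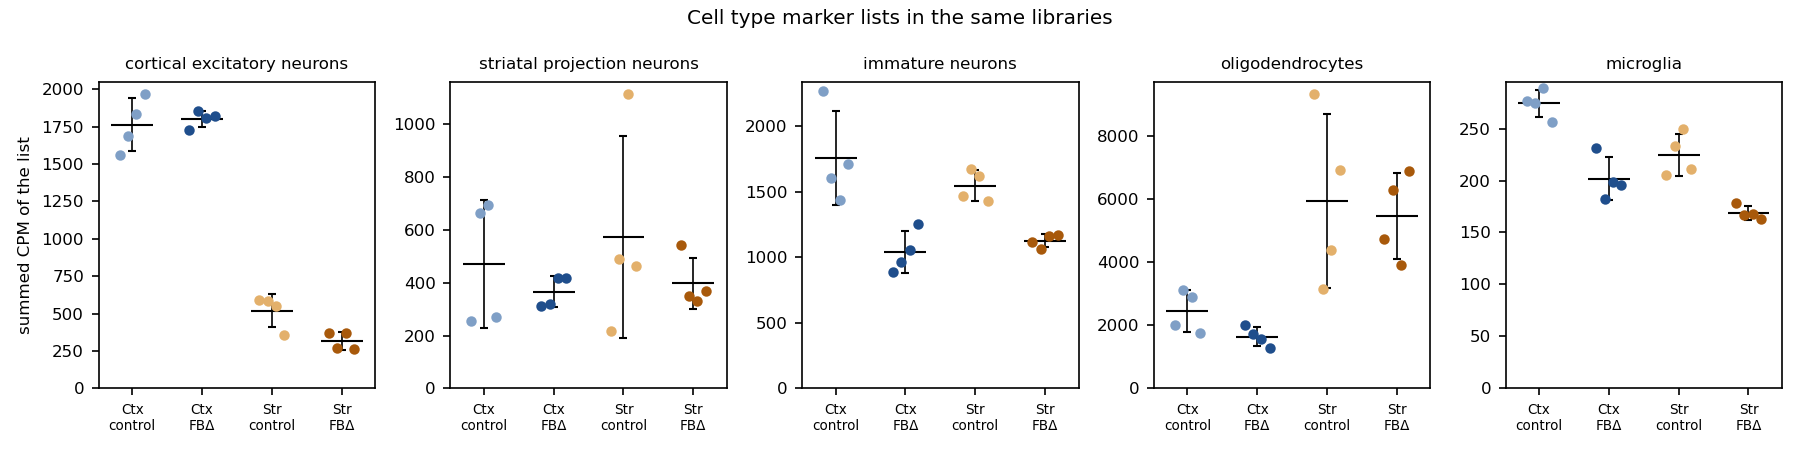
Summed CPM of 5 cell type marker lists (vertical axes, starting at 0) in the 4 libraries of each tissue and genotype, with means (bars) and SDs (error bars). Immature neuron and microglia sums are lower in all Trrap-FBΔ libraries than in the controls of the same tissue, the former mostly through Dpysl3 (479 to 576 against 212 to 258 CPM in striata), and the striatal projection neuron sums overlap between tissues.

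Camkv (ENSMUSG00000032936, chr9:107935674-107949691, plus strand) encodes a kinase-like protein of synapses without kinase activity. Its cortical levels were 538, 544, 575 and 583 CPM in control and 621, 594, 617 and 663 CPM in Trrap-FBΔ mice. All Trrap-FBΔ cortices lay above all controls, but the test missed the threshold (log2 fold change 0.16 ± 0.056 (SE), adjusted p = 0.0514), and it passed with DESeq2 (adjusted p = 0.00853), limma-voom (0.0346), upper-quartile normalization (0.0287) or without mouse 59 (0.0399). In the striatum the values were 259, 352, 365 and 261 CPM and 347, 267, 330.4 and 259.8 CPM, in 2 overlapping groups (log2 fold change -0.039 ± 0.14 (SE), adjusted p = 0.854).

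Camkk2 (ENSMUSG00000029471, chr5:122731170-122779409, minus strand), the gene of the kinase that activates CaMKI, CaMKIV and the AMP-activated protein kinase, had the smallest adjusted p of the 10 genes in the cortex. Control cortices held 334, 339, 355 and 355 CPM and Trrap-FBΔ cortices 273, 288, 268 and 274 CPM. Each Trrap-FBΔ cortex was lower than each control, and the level fell by 20.2% (log2 fold change -0.33 ± 0.046 (SE), adjusted p = 0.000409). In the striatum the controls held 139, 159, 187 and 134 CPM, with mouse 64 highest, and the Trrap-FBΔ mice 115, 106, 104 and 102 CPM. There the groups did not overlap either, and the level fell by 31.1% (log2 fold change -0.54 ± 0.10 (SE), adjusted p = 0.00268).

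An interaction term, fitted to the 16 libraries together, compared the genotype effect in striatum with that in cortex. None of the 10 genes passed, against 0.437% of 19438 genes in edgeR (0.195% higher and 0.242% lower), and 1 had an unadjusted p under 0.05. This was Camk2a, with an effect lower by 0.55 ± 0.22 (SE) on the log2 scale in the striatum (unadjusted p = 0.0207 and adjusted p = 0.296 in edgeR). DESeq2 and limma-voom also called 0 of the 10. Camk4 gave a difference of -0.20 ± 0.21 (adjusted p = 0.764), and of -0.36 to -0.024 with 1 mouse left out. With the mouse as a block, which pairs the tissues of the 7 mice that gave both and with which 219 of the 19438 genes passed against 85 without it, Camk4 passed as falling further in the striatum (difference -0.43 ± 0.086, adjusted p = 0.0464), and Camk2a had an adjusted p of 0.0668.

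The tissues themselves were compared within each genotype, which shares no library between the 2 comparisons. In control mice 8 of the 10 genes passed, with Camk2d higher in the striatum and Camk2a, Camk2b, Camk2n1, Camk4, Camk1d, Camkv and Camkk2 lower, against 40.4% of 18284 genes tested, 20.3% higher and 20.1% lower. The median log2 difference, striatum over cortex, was -0.77 over the 10 genes and 0.0086 over all. In Trrap-FBΔ mice 9 passed, these 8 genes in the same directions and Camk2n2 as higher, against 54.7% of 18872 genes, 27.4% in either direction, with medians of -0.89 and 0.0041. With upper-quartile normalization 6318 of 10444 genes called in these mice were higher in the striatum, against 5166 of 10329.

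The largest differences belonged to Camk2a, at 2102 ± 223 CPM in control cortices and 939 ± 233 CPM in control striata (log2 difference -1.16 ± 0.16, adjusted p = 0.000244), and Camkk2, at 346 ± 10.8 and 155 ± 24.2 CPM (-1.15 ± 0.10, adjusted p = 1.37e-05). In Trrap-FBΔ mice the difference was -1.71 ± 0.12 for Camk2a (adjusted p = 2.34e-07) and -1.37 ± 0.047 for Camkk2 (adjusted p = 2.08e-09). Camk2d went the other way, by 0.61 ± 0.15 in control (adjusted p = 0.00918) and 0.94 ± 0.089 in Trrap-FBΔ mice (adjusted p = 2.82e-06). Camk2g passed in neither genotype, with -0.10 ± 0.070 (adjusted p = 0.273) and -0.035 ± 0.046 (adjusted p = 0.552). Camk2n2 gave 0.16 ± 0.076 in controls (adjusted p = 0.128), where it passed with upper-quartile normalization (0.0480) or without mouse 64 (0.0426), and 0.23 ± 0.057 in Trrap-FBΔ mice (adjusted p = 0.00456). Cortical excitatory markers were lower in the striatum for 8 of 8 genes in both genotypes and oligodendrocyte markers higher for 6 of 6, and their part in these differences was not tested.

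The other genes of the pathway were followed in 6 lists, to be read beside the 33.3% and 30.2% of all genes that passed in the cortex and striatum and the medians over all genes given above. No list was tested as a set. Of 8 genes for calmodulin, the calcium sensor that opens CaM kinases, and for neuronal proteins that bind it, 5 were lower in the cortex, 7 were lower in the striatum and none was higher in either, with median log2 fold changes of -0.38 and -0.43. Gap43, a growth cone protein, fell by 0.96 on the log2 scale in the cortex, from 747 ± 76.3 to 384 ± 33.6 CPM (mean ± SD, adjusted p = 2.77e-05), and by 0.73 in the striatum (adjusted p = 6.40e-05). Marcks, which binds calmodulin and actin at the membrane, changed by -0.59 ± 0.064 and -0.31 ± 0.064 (adjusted p = 8.65e-05 and 0.00563). Calm3, a calmodulin gene, changed by -0.49 ± 0.078 and -0.51 ± 0.063 (adjusted p = 0.000808 and 0.000447), while Calm2 passed in the striatum with -0.40 ± 0.080 and not in the cortex, where it gave -0.12 ± 0.069.

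Among 12 other calmodulin-dependent kinase genes, 2 were higher and 4 lower in the cortex, and 1 was higher and 2 lower in the striatum (medians 0.13 and -0.10). Pnck, a kinase of the CaMKI family, rose in both tissues, by 0.57 ± 0.049 and 0.17 ± 0.058 (adjusted p = 2.73e-05 and 0.0497). It was the 1 gene of the 12 to pass for the difference between tissues (-0.40 ± 0.076, adjusted p = 0.0285), where with sex as a covariate no gene passed as lower. Eef2k, which phosphorylates elongation factor 2, changed by -0.37 ± 0.055 and -0.28 ± 0.061 (adjusted p = 0.000520 and 0.00652), and Cask, a synaptic scaffold with a CaM kinase domain, by -0.27 ± 0.041 and -0.17 ± 0.055 (adjusted p = 0.000694 and 0.0446). The remaining cortical calls were Camk1 and Dapk1 as lower and Mylk3 as higher. Camkk1, the second CaM kinase kinase, did not pass, with 0.18 ± 0.067 in the cortex and -0.084 ± 0.056 in the striatum (adjusted p = 0.0603 and 0.279).

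Of 7 genes of the AMP-activated protein kinase, which Camkk2 activates, and its other activator, 5 were lower in the cortex and none higher, and in the striatum 4 were lower and 2 higher (medians -0.22 and -0.20). The regulatory subunit genes Prkab2, with -0.45 ± 0.042 and -0.47 ± 0.051 (adjusted p = 4.10e-05 and 0.000235), and Prkag2, with -0.33 ± 0.041 and -0.31 ± 0.063 (adjusted p = 0.000192 and 0.00548), fell in both tissues. The catalytic subunit gene Prkaa2 also fell in both (-0.31 ± 0.049 and -0.20 ± 0.047, adjusted p = 0.000788 and 0.00988), as did Prkag1, and Stk11, the kinase LKB1, was lower in the cortex. Both genes that rose in the striatum, Prkab1 and Prkaa1, encode the alternative beta and alpha subunits, with 0.29 ± 0.058 and 0.15 ± 0.049 (adjusted p = 0.00489 and 0.0445).

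Of 14 postsynaptic partners of CaMKII, 1 was higher and 1 lower in the cortex, Kalrn and Cacng2, and in the striatum 8 were lower and none higher (medians 0.037 and -0.25). Grin2b, the NMDA receptor subunit that anchors CaMKII, was at 406 ± 29.5 CPM in control and 290.4 ± 38.4 CPM in Trrap-FBΔ striata (-0.48 ± 0.094, adjusted p = 0.00407) and did not pass in the cortex (-0.0099 ± 0.084, adjusted p = 0.940). Cacna1c, a calcium channel subunit, fell in the striatum (-0.24 ± 0.050, adjusted p = 0.00572) and gave -0.16 ± 0.085 in the cortex (adjusted p = 0.171). The AMPA receptor auxiliary subunit gene Cacng2 fell in the cortex (-0.18 ± 0.042, adjusted p = 0.00708) and gave -0.061 ± 0.070 in the striatum (adjusted p = 0.544). None of the 14 had an adjusted p under 0.05 for the difference between tissues in edgeR. Cortical excitatory neuron markers were lower in the same striata, with the sums given beside Camk2a, and their part in these 8 results was not tested.

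Of 11 CREB and MEF2 factor genes and their partners, 2 were higher and 2 lower in the cortex and 1 was higher and 3 lower in the striatum (medians -0.023 and -0.015). Crtc1, a coactivator of CREB, rose by 0.28 ± 0.054 in the cortex (adjusted p = 0.00246) and gave 0.19 ± 0.073 in the striatum (adjusted p = 0.0713). Mef2c, a factor of neuronal maturation, changed by -0.23 ± 0.073 and -0.83 ± 0.17 (adjusted p = 0.0313 and 0.00529), and Mef2a by -0.20 ± 0.052 and -0.30 ± 0.071 (adjusted p = 0.0139 and 0.00995). Crem was the other cortical rise, and Atf1 rose and Creb1 fell in the striatum.

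Of 10 genes for calcineurin, its regulators and the phosphatases that switch CaM kinases off, 2 were higher and 2 lower in the cortex, and none was higher and 2 lower in the striatum (medians -0.0054 and -0.020). Ppm1f, a CaM kinase phosphatase, fell in both tissues (-0.30 ± 0.042 and -0.28 ± 0.056, adjusted p = 0.000409 and 0.00455). In the cortex Ppp3cc, a calcineurin catalytic subunit, rose by 0.19 ± 0.056 (adjusted p = 0.0217) and Rcan2, a calcineurin regulator, changed by -0.21 ± 0.065 (adjusted p = 0.0269). The other calls were Ppm1e as higher in the cortex and Ppp3cb as lower in the striatum.

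The genes whose levels ran most like a member's were sought over the 16 libraries after the mean of each tissue was subtracted, among 14961 genes with at least 50 counts on average. For Camk2a they were Ddn (r = 0.949), Actr3b (r = 0.947) and Fam81a (r = 0.946). For Camk2n1 they were Arpp19 (r = 0.922), Plcl2 (r = 0.915) and Kctd17 (r = 0.906). For Camk4 they were Kif21b (r = 0.951), Pvr (r = 0.944) and Cntn5 (r = 0.934). These Pearson correlations of log2 CPM describe libraries that share animals and tissues and were the highest of many, and the difference between genotypes is part of them.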

How the data were processed

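Total RNA of cortices and striata was made into strand-specific mRNA libraries. The values deposited by the authors are raw counts of uniquely mapped reads per Ensembl gene, aligned to GRCm38 with STAR 2.5.4b and counted with featureCounts 1.5.0 in stranded mode, without normalization or filter.

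Genotypes and tissues were compared by edgeR's quasi-likelihood test (edgeR 4.0.16, R 4.3.3) after filterByExpr and TMM normalization, with Benjamini-Hochberg adjustment over all genes tested and a threshold of 0.05. The authors used DESeq2 for this contrast, and DESeq2 1.42.0 and limma-voom (3.58.1) served as alternatives, together with other normalizations, no filter, sex as a covariate, all 16 libraries in one fit, the mouse as a block and each library left out in turn. An SE is the log2 fold change over the square root of F. CPM are TMM-scaled over all 16 libraries and RPKM are per kb of merged exons (GENCODE M21, GRCm38). Ratios were compared with exact permutation tests, 2-sided. Promoter sequences are from RefSeq, with windows read for 6 of the 10 genes. Camk2a and Camk4, which lie on the same chromosome, were left out by choice, and Camk2g and Camk2n1 had no window.

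Libraries with the same number in their titles are taken to come from one mouse. Over 14430 genes their deviations from the group means correlated with r between 0.130 and 0.357 in all 7 pairs. Between different mice r ran from -0.284 to 0.212, so the ranges overlapped. The cortex of mouse 58 correlated more with the striatum of mouse 65 (r = 0.212) than with that of mouse 58 (r = 0.146). No 2 libraries of a group were copies (chi-square over degrees of freedom at least 8.26 in the 24 pairs within groups, and pairs across groups were not compared). The members and lists were chosen with earlier results of these data known. In each list the 3 genes with the smallest adjusted p in either tissue were named by rule, and the others were named after their values were seen. The p-values of the genotype tests within a tissue measure the spread between mice. For the difference between tissues and for striatum against cortex, the main fits treated libraries of the same mouse as independent. The mouse block was an alternative there.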

Additional observations from a re-analysis of the deposited data

Results flagged for a closer look

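In 3 of 96 groups of 4 libraries, 1 library stood apart from the other 3 by Dixon's test, where chance alone flags about 1 in 20. Camk4 in the Trrap-FBΔ cortex of mouse 61 was at 505 CPM, and the other 3 cortices lay between 402 and 411 CPM. In the control striatum of mouse 64, Camk2b was at 751 CPM, with the others between 595 and 621 CPM, and Camk1d was at 141 CPM, with the others between 123 and 125 CPM. That library also had the highest sum of striatal projection neuron markers of all 16, 1117 CPM. Without mouse 64, Camk1d remained lower in Trrap-FBΔ striata (log2 fold change -0.41, adjusted p = 0.000806 in edgeR), and without mouse 61 Camk4 remained lower in Trrap-FBΔ cortices (-0.64, adjusted p = 0.00901).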

How the results depend on the processing

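Of 710 alternative values for the 10 genes in the 5 comparisons, 636 kept the direction and the side of the threshold, 32 lost and 9 gained the call, and 33 changed sign, all of these for genes that had not passed. The number of genes called among the 10 stayed within 1.5 times under every alternative run, except under a fold change threshold and, for the difference between tissues, the mouse block. Tested against a fold change of 1.2, 0 of the 10 passed in the cortex and 3 in the striatum, Camk4, Camk1d and Camkk2. With the mouse as a replicate block, 1 passed for the difference between tissues, Camk4, in place of 0, and the block changed no other call of the 10. Leaving out 1 library or mouse gave 4 to 5 calls in the cortex, 4 to 6 in the striatum, 0 for the difference, 8 to 9 in control mice and 9 in Trrap-FBΔ mice. The log2 differences of the ratios then ran from -0.074 to 0.057 (cortex) and -0.64 to -0.41 (striatum) for Camk2a to Camk2b, from -0.15 to -0.045 and 0.16 to 0.35 for Camk2n1 to Camk2a, and from -0.12 to 0.080 and -0.35 to -0.12 for Camk2n1 to Camk2n2. With the length of the longest transcript, 13 of 40 places in the order of levels were kept.

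Signs changed with upper-quartile normalization for Camk2a (0.0071) and Camk2b (0.0071) in the cortex, Camk2b (0.018) and Camk2n2 (0.0010) in the striatum, and Camk2g between tissues of Trrap-FBΔ mice (0.033). With sex as a covariate they changed for Camk2b in the cortex (0.018), the striatum (0.010) and the difference (-0.0094). Camk2b in the striatum also changed sign with no filter (0.0038), limma-voom (0.0020) and without the control striata of mice 58 and 64 (0.073). Leaving out libraries moved the log2 fold change across 0 for Camk2a (-0.067 to 0.039) and Camk2b (-0.049 to 0.024) in the cortex, for Camk2b (-0.042 to 0.081), Camk2n2 (-0.074 to 0.025) and Camkv (-0.12 to 0.050) in the striatum, and for Camk2b (-0.056 to 0.065) and Camk2n2 (-0.0031 to 0.16) in the difference.

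Over all genes, the number called changed by over 1.5 times when tested against a fold change of 1.2 (cortex 1381 in place of 6090, striatum 1364 in place of 5704) and for the striatum without the controls of mice 58 and 64 (3692). For the difference between tissues it was 85, and 195 with no filter, 430 with DESeq2, 219 with the mouse block, 2 with sex as a covariate and 2 to 151 with 1 mouse left out. The causes were not tested. The 2 fits that leave out pairs of control libraries were chosen after the data were seen. In 10 of 40 group levels, CPM by library size moved by more than 1 SD from the scaled CPM.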
